A study of Arabidopsis thaliana with 12 samples.

Results

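WES1, also called GH3.5 (AT4G27260), and HAT2 (AT5G47370) are auxin-inducible genes of Arabidopsis thaliana on chromosomes 4 and 5, each measured by 1 probe set of the array's probe table. They are 2 of the 9703 genes that had a probe set of their own and reached a signal of 100 on at least 1 array, and both passed that filter. They were chosen by the readout itself, since their signals were higher in flowers that lack ARF6 and ARF8, so their differences between the double mutant and wild-type describe the choice and are given without a test. The 12 arrays hold 3 genotypes of the Columbia background in 4 tissues, 1 array for each genotype and tissue. The genotypes were wild-type, the arf6 arf8 double mutant, and plants titled arf6/arf6 ARF8/arf8 that retain 1 functional copy of the gene pair, called single-copy plants here (the design description names ARF6/arf6 arf8/arf8 for them). Tissues were flowers of stages 1-10, 11-12 and 13-14 and about 0.5 cm of stem under the inflorescence, all from untreated plants grown for 6 weeks in long days. Flowers of the double mutant are known to stay closed, so equal stage labels need not mean flowers of equal form.

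Auxin acts by removing Aux/IAA repressor proteins from auxin response factors (ARFs), the transcription factors that then switch on early auxin genes. ARF6 and ARF8 are activating members of this family and are known for stamen elongation, gynoecium maturation and flower opening. GH3 genes are classical early auxin genes. Their enzymes join hormones to amino acids, and the WES1 enzyme conjugates indole-3-acetic acid, the main auxin, and also salicylate, so that rising auxin induces its own removal. HAT2 encodes a homeodomain-leucine zipper protein of class II, a group of transcriptional repressors linked to auxin and shade responses, and it was identified as an early auxin-inducible gene.

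Signals are linear intensities scaled by the authors to a common trimmed mean. Between single-copy plants and wild-type, 936 probe sets differed at least 2-fold in stage 1-10 flowers and 1012 in those of stages 13-14, but 397 at stages 11-12 and 166 in stem. The first 2 of these single-copy arrays are therefore said to stand apart, and values that rest on them are marked. Marker genes followed the tissue labels in part. Signals of the nectary gene SWEET9 ranged from 1310 to 5520 where ARF6 or ARF8 was present in older flowers and from 92.6 to 101.4 in the 3 stems. They were 44.8 to 111 in stage 1-10 flowers and 46.7 and 83.9 in older double-mutant flowers, so SWEET9 did not set these flowers apart from stem. The summed signal of 7 gynoecium and ovule genes was 2021 to 2745 in flowers and 628.6 to 797.3 in stem. The 2 vascular and secondary wall genes did not set stem apart, with a summed wild-type signal of 327.7 in stem and 244.6 to 518.5 in flowers. Of 11 floral organ identity genes only UFO, a gene of young meristems, was in the probe table, with signals of 3.5 to 11.5 throughout.

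WES1 signal in the double mutant was 1604 at stages 1-10, 3615 at stages 11-12, 5195 at stages 13-14 and 1929 in stem. In wild-type it was 2337, 892, 1107 and 947 in the same order, and in single-copy plants 749.6, 537, 1143 and 521. The 2 older double-mutant flower samples had the highest levels of all 12 arrays, above every wild-type and single-copy array. Stage 1-10 flowers departed from this order, since wild-type buds had more WES1 signal than double-mutant buds. The fitted difference of the double mutant from wild-type over stages 11-12 and 13-14 was 2.07 on the log2(signal + 50) scale (SE 0.34), a description of the value behind the choice.

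HAT2 signal in the double mutant was 1067 at stages 1-10, 2216 at stages 11-12, 2225 at stages 13-14 and 1489 in stem. Wild-type gave 1142, 403.5, 664 and 428, and single-copy plants gave 557, 668, 922 and 828. Here too the 2 older double-mutant flower samples were the highest of the 12, and the double-mutant stem came next, above every wild-type and single-copy array. Double-mutant and wild-type buds of stages 1-10 were close to each other. The fitted difference over the older flowers was 1.997 (SE 0.418), again a description. In such bulk samples, a difference in the number of cells of a type and one in RNA per cell cannot be told apart.

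**Figure D1:**
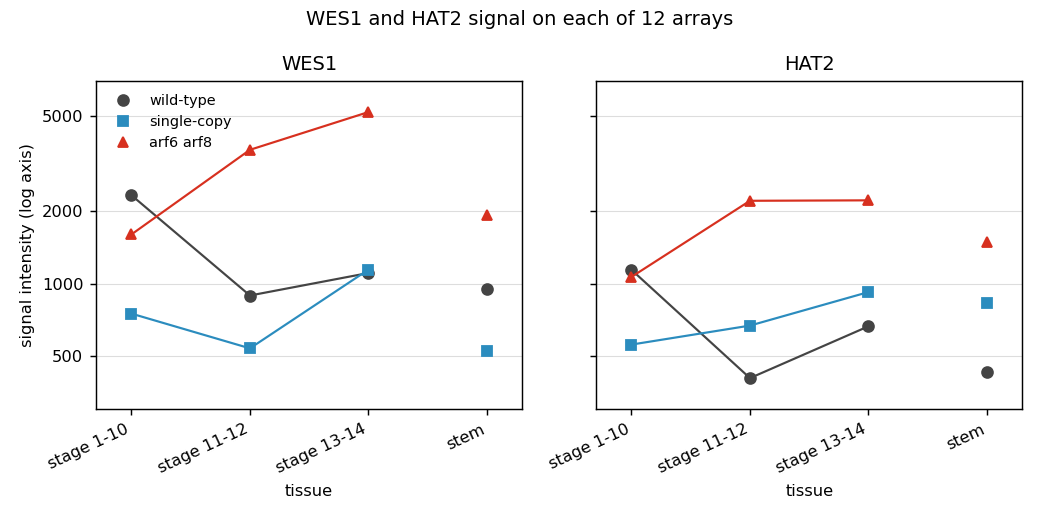
Signal intensity (log axis) of WES1 and HAT2 by tissue, 1 point per array, with lines joining the flower stages of a genotype. Double-mutant flowers of stages 11-12 and 13-14 lie at 3615 and 5195 for WES1 and at 2216 and 2225 for HAT2, above all other arrays, whereas at stages 1-10 wild-type lies above the double mutant.

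Within tissues, ratios of (signal + 50) between single arrays show how the choice was built up. WES1 in the double mutant was 0.693 times wild-type at stages 1-10, 3.89 times at stages 11-12, 4.53 times at stages 13-14 and 1.99 times in stem. For HAT2 the ratios were 0.937, 4.996, 3.189 and 3.22. Both genes thus exceeded a ratio of 2 in both older flower stages and HAT2 also did in stem, where 3.57%, 5.33% and 2.53% of 17642 probe sets were at least 2-fold higher with a signal of 200 or more (1.07% at stages 1-10). Nothing is read from these shares, because this contrast chose the genes. The 2 genes differed in their order: the HAT2 ratio was highest at stages 11-12 and the WES1 ratio at stages 13-14, a difference that single arrays cannot test.

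Against single-copy plants, WES1 in the double mutant was 2.07 times higher at stages 1-10, 6.24 times at stages 11-12, 4.40 times at stages 13-14 and 3.47 times in stem, so each tissue passed 2-fold. HAT2 was 1.84, 3.155, 2.34 and 1.75 times higher. The shares of all probe sets at least 2-fold higher were 4.71%, 7.58%, 5.07% and 0.935% in these tissues. The comparisons with wild-type and with single-copy plants share the double-mutant arrays. Their high values chose the genes, so nothing is read from these ratios or shares either. The values at stages 1-10 and 13-14 rest on the single-copy arrays that stood apart.

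**Figure D2:**
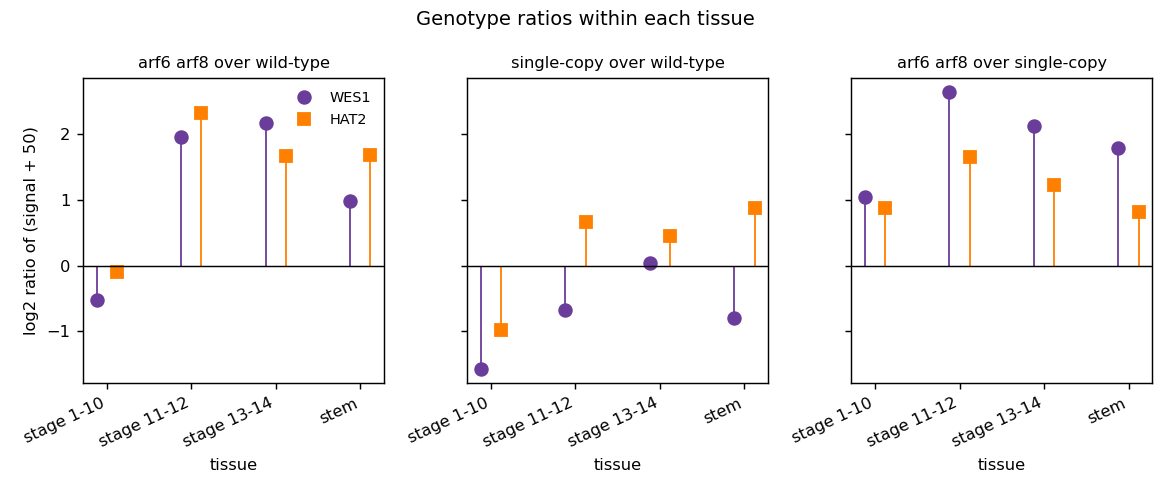
Log2 ratio of (signal + 50) between single arrays of 2 genotypes, by tissue, for WES1 (circles) and HAT2 (squares), with 0 meaning equal signals. The double mutant lies above single-copy plants in every tissue and above wild-type in every tissue but stages 1-10, where WES1 is at -0.53 and HAT2 at -0.09.

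In younger tissue, stage 1-10 flowers and stem together, the fitted difference of the double mutant from wild-type was 0.23 for WES1 (SE 0.34, 95% interval -0.55 to 1.01) and 0.80 for HAT2 (SE 0.418, 95% interval -0.16 to 1.75). These values too are a description, because the choice may have used all 12 arrays. Both averages join tissues that differed. WES1 was lower in double-mutant buds and higher in double-mutant stem, and HAT2 was close to wild-type in buds and higher in stem. Without the wild-type stem array the difference was -0.34 for WES1 and -0.11 for HAT2, and without the wild-type stage 1-10 array 0.80 and 1.71 (WES1 was at -0.34 without the double-mutant stem array).

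Single-copy plants gave the level with 1 functional gene copy. WES1 was lower than in wild-type at stages 1-10 (0.335 times), at stages 11-12 (0.623 times) and in stem (0.573 times), and close to it at stages 13-14 (1.03 times). Of these only the value at stages 1-10 was more than 2-fold lower, where 3.71% of all probe sets were (1.76% at stages 11-12, 2.98% at stages 13-14 and 0.504% in stem). Its fitted difference over the 4 tissues was -0.76 (SE 0.252, 95% interval -1.34 to -0.17), lower in 3 of 4 tissues, and did not pass after adjustment (adjusted p = 0.85, unadjusted p = 0.0184, limma). With 1 array per genotype and tissue there are no replicates, so the p-values given here measure only the spread left by these models. HAT2 was 0.509 times wild-type at stages 1-10, 1.58 times at stages 11-12, 1.36 times at stages 13-14 and 1.84 times in stem, a fitted difference of 0.25 (SE 0.299, 95% interval -0.44 to 0.95, adjusted p = 0.94). In this test 0.0170% of probe sets passed. Without the 2 arrays that stood apart, which leaves 1 array for each of their tissues, the WES1 difference was -0.74. The HAT2 difference was then 0.77, against 0.25 with all 8 arrays. Neither passed. HAT2 was at 0.66 without either stage 1-10 array, at 0.12 without either stage 11-12 array and at 0.045 without either stem array or with flower arrays alone. WES1 was at -0.48 without either stage 1-10 array and reached -1.02 without either stage 13-14 array. The wild-type arrays used here also stood in the contrast that chose the genes.

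The course over flower development was followed in the 8 wild-type and single-copy arrays, which leave out the high double-mutant values. In wild-type both signals were lower at stages 11-12 than in younger buds, at 0.395 times for WES1 and 0.381 times for HAT2, a step in which 2.50% of probe sets were at least 2-fold lower. They were at 1.23 and 1.57 times the stage 11-12 level at stages 13-14. The older wild-type flowers also stood in the contrast that chose the genes. That choice favours low levels there, so the p-values of these steps are not independent of it. In single-copy flowers the step from stages 1-10 to 11-12 was 0.734 times for WES1 and 1.18 times for HAT2. Over both genotypes the fitted step was -0.89 for WES1 (SE 0.357, 95% interval -1.73 to -0.06, adjusted p = 0.261, limma) and -0.58 for HAT2 (SE 0.423, 95% interval -1.56 to 0.41, adjusted p = 0.584). From stages 11-12 to 13-14 it was 0.66 (SE 0.357, adjusted p = 0.435) and 0.55 (SE 0.423, adjusted p = 0.556). None of these steps passed, while 5.49% and 2.74% of all probe sets did.

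The size of these steps turned on single arrays of both genotypes. Without the 2 that stood apart, the fitted step from stages 1-10 to 11-12 was -1.31 for WES1 and -1.45 for HAT2. The stage 1-10 level then came from 1 wild-type array alone, so no p is given. Without the wild-type stage 1-10 array the same step was -0.35 for WES1 and 0.24 for HAT2, and without the single-copy stage 1-10 array -1.44 and -1.39. In some alternative runs the first step of WES1 and of HAT2 and the later step of WES1 passed the threshold. The first WES1 step did so with either stage 13-14 array left out, which leaves 1 array for that tissue. Leaving out the single-copy one brought more probe sets past the threshold in general. Nothing is read from any of these passes. The later WES1 step was 1.19 without the wild-type stage 13-14 array and 0.13 without the single-copy one. In the double mutant the first step went the other way: WES1 was 2.22 times and HAT2 2.03 times higher at stages 11-12 than at stages 1-10, and the following step was 1.43 and 1.00 times. Whether this course differs between genotypes was not tested, since the older double-mutant arrays chose the genes.

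Stem and young flowers were compared in the same 8 arrays. WES1 in stem was 0.418 times its stage 1-10 level in wild-type and 0.714 times in single-copy plants, a fitted difference of -0.87 (SE 0.357, 95% interval -1.70 to -0.04, adjusted p = 0.183, limma). HAT2 was at 0.401 times in wild-type and 1.45 times in single-copy plants, which gave -0.39 (SE 0.423, 95% interval -1.38 to 0.59, adjusted p = 0.598). Neither passed, against 8.22% of all probe sets, although both were over 2-fold lower in wild-type, as were 5.68% of probe sets. Of the 8 tests of the pair in wild-type and single-copy arrays 0 passed, and 3, all of WES1, had an unadjusted p under 0.05. Of all 17642 probe sets, 985 had such a p between single-copy plants and wild-type. In the stage steps 2960 and 2575 did, and in stem against stages 1-10 4376 did. Nothing is therefore read from the 3. Without the 2 single-copy arrays that stood apart the stem differences were -1.29 for WES1 and -1.27 for HAT2, again with 1 wild-type array for stages 1-10. Without the wild-type stage 1-10 array they were -0.32 and 0.43, and without the wild-type stem array HAT2 was at 0.02. Leaving out a stage 13-14 array of either genotype, which leaves 1 array for that tissue, brought the WES1 difference past the threshold. Without the single-copy one, many more probe sets passed in general. The HAT2 difference also passed in some alternative run. Nothing is read from any of these passes.

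**Figure D3:**
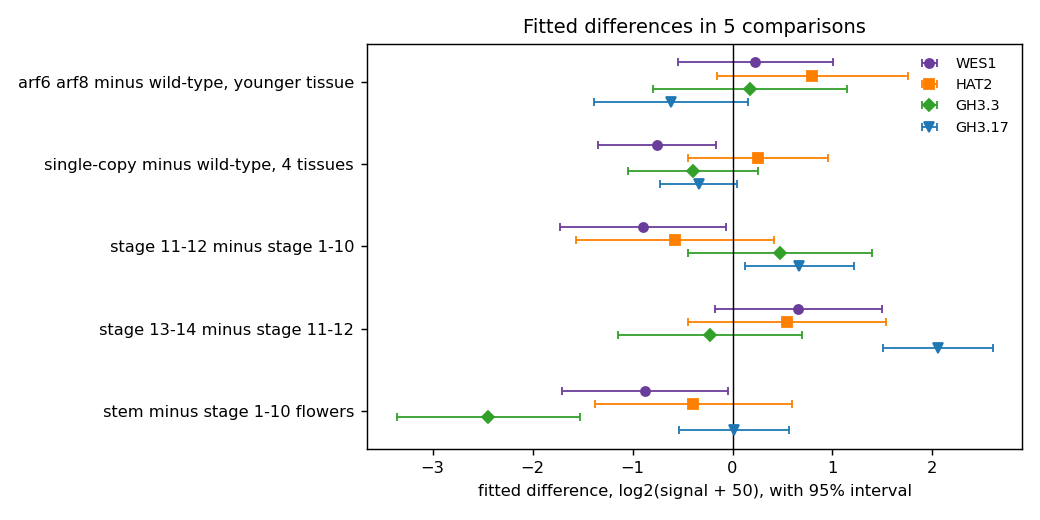
Fitted differences in log2(signal + 50) with 95% intervals in 5 comparisons, for WES1, HAT2 and 2 further GH3 genes. The younger-tissue values come from all 12 arrays and are a description for WES1 and HAT2, and the others come from the 8 wild-type and single-copy arrays. Intervals of HAT2 include 0 in each comparison, and GH3.17 at stages 13-14 and GH3.3 in stem lie farthest from 0.

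Ranked over the 12 arrays, WES1 ran from 521 in single-copy stem to 5195 in double-mutant flowers of stages 13-14. Gaps between neighbours in that order exceeded the residual SD of the fit (0.423 on the log2 scale) at only 4 places, below single-copy stage 1-10 flowers, below double-mutant stage 1-10 flowers and below each of the 2 highest arrays. The wild-type samples of stages 11-12 and 13-14 and stem and the single-copy sample of stages 13-14, with signals from 892 to 1143, followed each other without such a gap. HAT2 ran from 403.5 in wild-type flowers of stages 11-12 to 2225 in double-mutant flowers of stages 13-14. For HAT2 1 gap, that below double-mutant flowers of stages 11-12, exceeded the residual SD (0.55), and only just, at 0.558. High double-mutant levels chose the genes, so the gaps of both genes describe the order and separate no groups. Across the 12 arrays the log2 levels of the 2 genes had Pearson's r of 0.835 (Spearman's rho 0.797), a description, since the arrays share genotypes and the choice. In the 8 arrays without the double mutant r was 0.415 (rho 0.333).

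Of 20 GH3 names listed, 5 were in the probe table and 4 of these genes passed the filter. For GH3.3, whose enzyme also conjugates auxin, the wild-type signal was 984.6 at stages 1-10, 778.8 at stages 11-12, 813 at stages 13-14 and 133 in stem. Single-copy plants gave 441, 1135, 782 and 43.8, and the double mutant 578, 1479, 2071 and 333. As for WES1, double-mutant buds were below wild-type and the other 3 double-mutant samples above it. Its fitted double-mutant difference in older flowers, 1.09 (SE 0.424), did not pass (adjusted p = 0.168, limma), where 5.96% of probe sets did. GH3.3 was lower in stem than in stage 1-10 flowers by a fitted -2.44 (SE 0.394, adjusted p = 0.0101, lower in 2 of 2 genotypes). With the wild-type stage 1-10 array left out the adjusted p was 0.0587, with the wild-type stem left out 0.0654 and with the single-copy stem left out 0.166, so each of these ended the call.

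GH3.17, whose enzyme joins auxin to glutamate, had another course. Its signals were 232, 444, 1722 and 200.3 in wild-type, 164, 258.5, 1432 and 196 in single-copy plants and 154, 303, 555 and 97 in the double mutant. It rose from stages 11-12 to 13-14 in wild-type and single-copy flowers by a fitted 2.05 (SE 0.236, adjusted p = 0.00625, limma), in 2 of 2 genotypes, a call that was lost when the stage 11-12 array of wild-type (adjusted p = 0.0687) or of single-copy plants (0.0896) was left out. In older double-mutant flowers it was at -1.02 relative to wild-type (SE 0.339, adjusted p = 0.119), the opposite sign to WES1, and passed without the single-copy stage 11-12 (0.0461) or 13-14 array (0.0465) or the double-mutant stage 11-12 array (-1.66, adjusted p = 0.044). Without the double-mutant stage 13-14 array it was at -0.38. GH3.9 ranged from 104 to 414 with its highest level in double-mutant stem, and GH3.1 stayed between 3 and 40.8 and did not pass the filter.

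**Figure D4:**
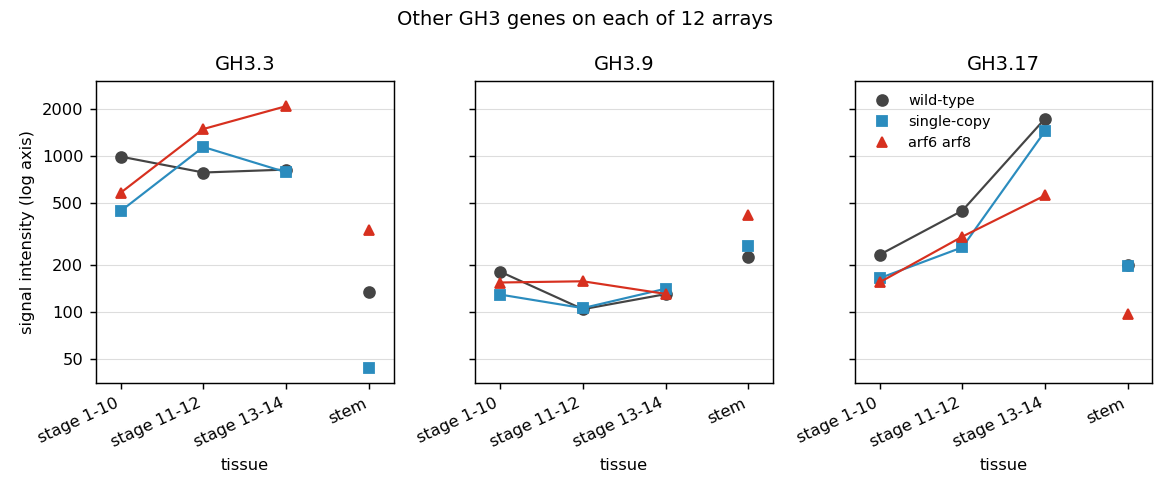
Signal intensity (log axis) of the other 3 GH3 genes that passed the filter, by tissue, 1 point per array. GH3.3 reaches 2071 in double-mutant flowers of stages 13-14 against 813 in wild-type, whereas GH3.17 reaches 1722 in wild-type and 555 in the double mutant.

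Few other auxin genes could be set beside WES1 and HAT2. Of 254 names on 9 auxin lists 22 were in the probe table, and 15 of those genes were kept, WES1 and HAT2 among them. HAT2 was the only class II homeodomain-leucine zipper gene of 10 that could be measured, and no gene for auxin transport, for ARFs or auxin receptors, or of the SAUR family was covered. Of the 13 kept genes other than the pair, 0 passed in older double-mutant flowers in either direction (limma), beside 5.96% of all probe sets, a share at which 0 of 13 is no result about these genes. Their median difference was -0.10, from -1.02 to 1.09, with 6 above 0 and 7 below, and the median of all probe sets was 0.05. In the younger-tissue and single-copy comparisons 0 of 13 passed as well, beside 0.0680% and 0.0170% of all probe sets, with medians of 0.04 and -0.08.

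Among them, the 4 Aux/IAA repressor genes had a median of -0.16 in older flowers, and the 3 YUC genes, which encode flavin monooxygenases of auxin synthesis, had one of -0.24. WES1 also acts on salicylate, and of 21 names for salicylate synthesis and response 4 were kept. Of these GRX480, a glutaredoxin gene induced by salicylate, fell in older double-mutant flowers by 1.16 (SE 0.243, adjusted p = 0.0297, limma), where 5.96% of all probe sets passed in either direction. GRX480 signals were low, at 32.9 and 49.2 in those flowers against 133.3 and 175.3 in wild-type. The size moved with the pseudocount, to -1.58 at 16 and -0.55 at 200. The other 3 members did not pass, and the list had 2 members above 0, 2 below and a median of -0.52. The call held without the single-copy stage 11-12 or 13-14 array and ended without any 1 of the other 10, at up to 0.281 without wild-type stages 13-14 (0.112 with the flower arrays alone). In younger tissue and in single-copy plants 0 of the 4 passed.

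Signals of some marker genes of other cell types, though not of every list, differed between genotypes beside these results. In older flowers the summed signal of the 3 anther and pollen genes measured of 19 listed came to 680.4 and 197 (wild-type), 376 and 222 (single-copy) and 257 and 36.5 (double mutant) at stages 11-12 and 13-14. SWEET9, the 1 nectary gene measured of 6, was at 46.7 and 83.9 in the double mutant. The 2 vascular and secondary wall genes of 18 summed to 518.5 and 245 in wild-type and 172 and 98.7 in the double mutant, while the 7 gynoecium and ovule genes of 21 summed to 2021 to 2198 in wild-type and 2120 to 2143 in the double mutant. By the test across all probe sets, 1 of the 3 anther genes, 1 of the 2 vascular genes and SWEET9 fell in the older double-mutant flowers and 0 of the 7 gynoecium genes passed, beside 5.96% of all probe sets in either direction. No marker was at 0, but a signal above 0 does not by itself show that a gene was expressed. In double-mutant flowers of stages 13-14 the 3 anther and pollen genes AMS, SPL and MGH3 were at 18.8, 6.6 and 11.1. In double-mutant stem the same genes were at 28.6, 6.2 and 7.6. The GAPDH 3' to 5' ratio, a sign of RNA quality, stood at 1.496 and 1.26 in older wild-type flowers, at 1.08 and 1.39 in those of the double mutant, and at 0.655 to 1.615 over all arrays. The part of these shifts in the WES1 and HAT2 values was not tested.

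The genes next to the pair on the chromosome, by order in the reference annotation, were measured as well. Beside WES1, AT4G27250 had signals from 68.4 to 230.9 and a fitted older-flower difference between double mutant and wild-type of 0.24 (SE 0.201, adjusted p = 0.513, limma), and AT4G27270 had signals from 164 to 729.7 and a difference of -0.95 (SE 0.353, adjusted p = 0.153). Beside HAT2, AT5G47360 was at -0.32 (SE 0.226, adjusted p = 0.424) and AT5G47380 at 0.15 (SE 0.447, adjusted p = 0.867). Of the 4 neighbours 0 passed this test, which 5.96% of all probe sets passed.

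Among 8371 other genes with a mean signal of at least 100, the profiles most like WES1 over the 12 arrays were those of AT1G21680 (Pearson's r 0.937), AT1G50570 (0.932), AT3G11290 (0.923), AT3G02290 (0.923), AT3G11600 (0.913) and ALDH6B2 (0.909), an aldehyde dehydrogenase gene. AT1G21680, the closest, ran through 899, 559, 529.8 and 647.5 in wild-type tissues and through 728, 1636, 2161 and 908.5 in those of the double mutant. HAT2 stood at rank 73 for WES1, and GH3.3 at rank 875 (r 0.599). The profiles most like HAT2 were those of AT5G52450 (0.945), FMO (0.941), which encodes a flavin monooxygenase, AT3G01590 (0.931), AT5G14080 (0.925), AT4G39560 (0.925) and AT3G48200 (0.924). FMO stood at 311, 138, 160.0 and 157 in wild-type tissues, 242, 206, 492.5 and 346 in single-copy plants and 714, 1232, 1516 and 1038 in the double mutant, so that its double-mutant level, unlike that of HAT2, was also above wild-type at stages 1-10. With Spearman's rho in place of r, 3 of the 6 genes were the same for each member, and AT1G21680 was not among those of WES1. Since WES1 and HAT2 were chosen for high double-mutant signals, high double-mutant levels of the genes most like them follow from the picking.

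**Figure D5:**
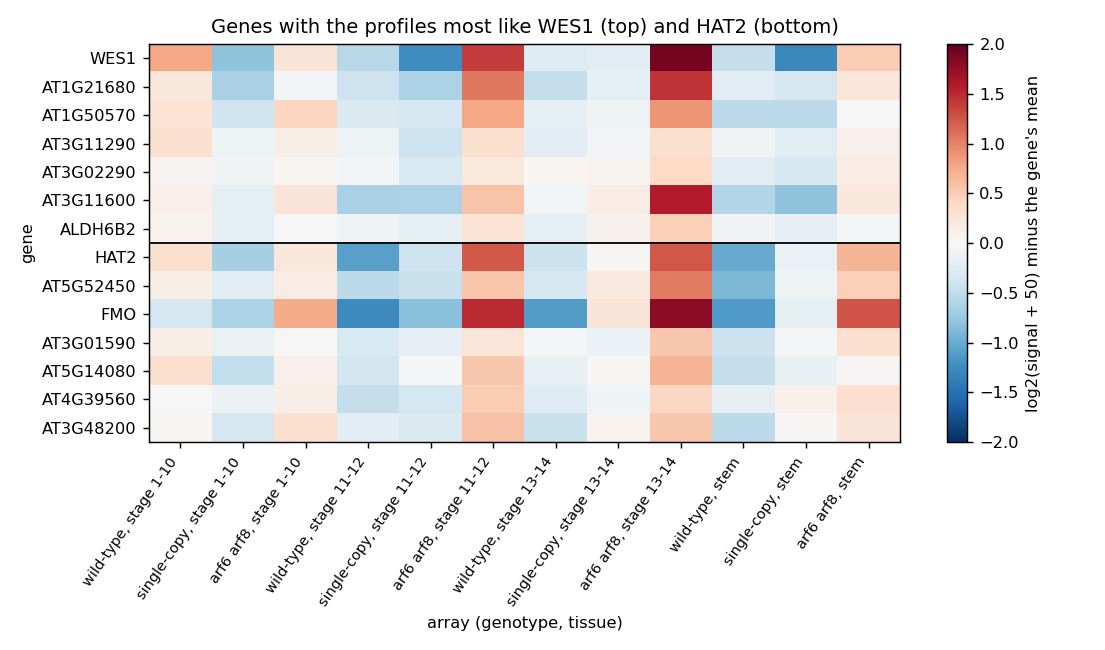
Log2(signal + 50) minus each gene's mean over the 12 arrays, for WES1 and the 6 genes most like it (above the line) and HAT2 and the 6 most like it (below). Red marks levels above the mean and blue levels below. All rows but AT3G11290 are highest in a double-mutant flower sample of stages 11-12 or 13-14, which follows from how the genes were picked. The signal of AT3G11290 is 429.2 in wild-type flowers of stages 1-10 and 428.9 in double-mutant flowers of stages 13-14.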

How the data were processed

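Signals of 22810 probe sets on each of 12 arrays are linear intensities that the authors deposited after MAS5, per the submitters' processing notes. Trimmed means were 500.03 to 500.04, and rescaling to 500 moved no value by more than 0.000128 (log2). Apart from 64 controls there were 22746 probe sets, of which the 17642 with a signal of 100 on at least 1 array were kept. By the platform's annotation 13513 probe sets had 1 gene symbol, 503 had several and 8730 were not listed. Log2(signal + 50) was fitted with limma 3.58.1 (lmFit, eBayes with trend) in R 4.3.3, two-sided, with Benjamini-Hochberg adjustment over all kept probe sets and a threshold of 0.05, and checked on simulated data. All 12 arrays gave genotype by phase plus tissue, and the 8 wild-type and single-copy arrays gave genotype plus tissue. With 1 array per genotype and tissue, tissues stand in for replicates, and precision is limited by how few arrays there are. A 2-fold count also asked for a signal of 200 on the brighter array.

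The genes and gene lists were chosen with earlier results of these data known. The younger-tissue difference of WES1 and HAT2 was planned as a test and is given without a p, since the choice may have used those arrays. The other tests of the pair rest on wild-type arrays that the choice may have used, so their p-values are not independent of it. Named were WES1, HAT2, every kept GH3 and class II homeodomain-leucine zipper gene, up to 4 members per other list past the threshold, and the 6 genes most like each of the pair. Alternatives were the pseudocount, the filter, quantile normalization, eBayes without trend, other sets of arrays and leaving out each array.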

Additional observations from a re-analysis of the deposited data

Results flagged for a closer look

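Opposite signs between tissues within 1 genotype contrast were seen for both genes, each with 1 array per side, and none of these differences was tested. For double mutant over wild-type, HAT2 was at -0.093 (log2 ratio) at stages 1-10 and 2.32 at stages 11-12, and WES1 at -0.53 at stages 1-10 and 2.18 at stages 13-14. The older-flower values are those that chose the genes. For single-copy over wild-type, HAT2 was at -0.97 at stages 1-10 and 0.88 in stem, and WES1 at -1.58 at stages 1-10 and 0.044 at stages 13-14. These single-copy values of stages 1-10 and 13-14 come from the arrays that stood apart from wild-type over all probe sets.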

How the results depend on the processing

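Counts of probe sets past the threshold moved with the arrays used. In older double-mutant flowers the count was 2459 without the 4 single-copy arrays, 2446 without the 2 that stood apart and 247 with flower arrays alone. In younger tissue it was 5 with a pseudocount of 200, 2 with no filter, and 1 without either set of single-copy arrays. For single-copy plants it was 0 with a pseudocount of 200, 0 with flower arrays alone and 75 without the 2 arrays. Without them the stage counts were 1726 (11-12 against 1-10) and 869 (13-14 against 11-12) and the stem count 2317. With all 12 arrays the first stage count was 1524 and the stem count 2394, and the later stage count was 311 with no filter and 142 with flower arrays alone. The leave-out of the 2 arrays was chosen after seeing the data.

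Leaving out each array in turn gave counts of 160 to 2338 (older flowers), 0 to 23 (younger tissue), 0 to 24 (single-copy), 404 to 1998 and 0 to 4429 (stages) and 258 to 4476 (stem). WES1 ran in the same order from 1.83 to 2.31, -0.34 to 0.80, -1.02 to -0.48, -1.44 to -0.35, 0.13 to 1.19 and -1.42 to -0.32. HAT2 ran from 1.73 to 2.27, -0.11 to 1.71, 0.05 to 0.66, -1.39 to 0.24, 0.27 to 0.82 and -1.21 to 0.43. Both kept their sign in older flowers under every alternative run, which is no support, since this contrast chose the genes. Without the 2 single-copy arrays, WES1 and HAT2 were at -1.31 and -1.45 for the first stage step and -1.29 and -1.27 for stem. Signs of small values turned for GH3.9 in single-copy plants (0.023 with quantile normalization, 0.10 without the 2 arrays), GH3.3 between the later stages (0.007 with all 12 arrays) and GH3.17 in stem (-0.011 with quantile normalization, -0.15 with all 12 arrays, -0.007 without the 2 arrays). With single arrays left out, GH3.9 ran from -0.013 to 0.44 in older flowers, -0.083 to 0.66 in younger tissue and -0.089 to 0.095 in single-copy plants, GH3.3 from -0.69 to 1.04 in younger tissue and from -0.13 to 1.08 and -0.83 to 0.38 over the stage steps, and GH3.17 from -0.20 to 0.23 in stem. The cause was not tested. Arrays could be matched by tissue alone, since the labels carry no replicate numbers, with 1 array per genotype and tissue. Tissue was a term in every model, so genotypes were compared within tissues.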
